A study of Arabidopsis thaliana with 20 samples.

Results

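The 24-nt siRNAs described here are the reads of 24 nt that matched the stem of an hpEIN2 hairpin, whose target EIN2 is a central component of the ethylene response (AT5G03280, chromosome 5 from 787428 to 793404 in TAIR10.1). They were chosen by length, strand and stem alone. Sense reads were taken from the stem sequence that each hairpin carries, and antisense reads, those complementary to EIN2 mRNA, from the WT stem. This gave 727904 reads of 24 nt among 3748603 reads of 18 to 25 nt (19.4%) in 15 libraries. Of the 24-nt reads, 522522 were sense and 205382 antisense. The 15 libraries came from whole Arabidopsis thaliana plants of ecotype Columbia at 3 weeks, all carrying an hpEIN2 transgene. The hpEIN2[WT] stem is perfectly paired (7 libraries) and the hpEIN2[G:U] stem carries G:U wobble pairs (8 libraries). The submitters' first table, which they name the first batch of small RNA sequencing, held 2 libraries of each hairpin in Columbia. Their second table, named the second batch, held 1 WT and 2 G:U libraries in Col-0. It also held 2 of each hairpin in the nrpd1a and the ocp11 mutants, so all mutant libraries were in the second batch. The transgene promoter, the nature of the library numbers and the number of plants pooled are not stated in the labels.

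In plants, Dicer-like enzymes cut double-stranded RNA into siRNAs of set lengths: DCL4 gives mainly 21-nt, DCL2 22-nt and DCL3 24-nt products. The 24-nt siRNAs are best known from RNA-directed DNA methylation. In that pathway RNA polymerase IV, whose largest subunit is encoded by NRPD1a, transcribes the precursor, a partner polymerase makes it double-stranded, DCL3 cuts it, and ARGONAUTE4, which is mutated in ocp11, binds the product and guides methylation of matching DNA. A hairpin transcript folds into a double strand by itself. The link between 24-nt reads and DCL3 is by length alone, since no DCL3 mutant was among the libraries, and it was not tested. The values are counts of reads by length, and the labels do not state the stem sequence. No siRNA sequence is therefore shown.

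The 24-nt counts per library ran from 1315 in nrpd1a WT library 13 to 240682 in ocp11 G:U library 6, and their share of the 18 to 25 nt reads from 3.19% to 26.6%. Library totals were not given, so only ratios within a library were compared. The first ratio is the strand ratio, the number of antisense reads per sense read at 24 nt. The others are the 24-to-21-nt ratios, the number of 24-nt reads per 21-nt read on one strand. Counting error was small: the widest 95% Clopper-Pearson interval, converted from a share to a ratio, reached 11.6% of the ratio to either side, in nrpd1a WT library 13. The second-table Col-0 WT library, numbered 15, stood apart. It was the only WT library with more antisense than sense 24-nt reads, and results that rest on it are given with and without it. It is the only Col-0 library with the WT hairpin in that table, so without it the hairpins cannot be compared in Col-0, and both Col-0 G:U libraries leave the comparison with it. Both ocp11 G:U samples carry a genotype label that names the WT hairpin. They were grouped by their titles, which say G:U. Of their sense 24-nt reads, counted on both stems, 0.0248% (library 4) and 0.197% (library 6) lay on the WT stem. The nrpd1a WT library numbered 13 in the table has the number 3 in its title, and it was matched as the remaining sample of its group.

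At 24 nt the antisense strand was scarce in all G:U plants and much closer to the sense strand with the WT hairpin. In the first table WT libraries 15 and 17 had 0.699 and 0.481 antisense reads per sense read (3164 against 4529 and 3040 against 6320 reads), and the G:U libraries 12 and 13 had 0.114 and 0.136 (1500 against 13171 and 3941 against 29081 reads). In Col-0 of the second table the strand ratio was 2.19 in WT library 15 and 0.112 and 0.0900 in G:U libraries 12 and 13. Within both tables the G:U libraries thus lay several-fold below their WT counterparts.

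The mutants gave the same order of the hairpins. In nrpd1a the strand ratio was 0.777 and 0.974 in WT libraries 2 and 13 and 0.180 and 0.191 in G:U libraries 2 and 18. In ocp11 it was 0.701 and 0.661 in WT libraries 10 and 11 and 0.260 and 0.220 in G:U libraries 4 and 6. The highest G:U library (0.260) was below the lowest WT library (0.481), so the hairpins did not overlap in any background. This separation was not particular to 24 nt, since it was also seen at 21 and 22 nt (below). As a share, antisense made up 8.26% to 20.6% of the 24-nt reads with the G:U hairpin and 32.5% to 68.6% with the WT hairpin.

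Averaged over the 4 strata of background and table, the log2 strand ratio at 24 nt was -2.60 in G:U relative to WT (SD 1.27 across the 4 strata), a 6.07-fold lower ratio. The exact stratified permutation test, two-sided, gave p = 0.00154, the smallest that its 648 arrangements allow, and an adjusted p of 0.00617 (Benjamini-Hochberg over 4 measures). The difference ran from -1.51 in ocp11 to -4.44 in Col-0 on the log2 scale. Without the second-table Col-0 stratum of 3 libraries it was -1.99 (exact test, adjusted p = 0.0247), and without the ocp11 stratum -2.97 (adjusted p = 0.0185). Within the first table it was -2.22, where 2 against 2 libraries cannot go below an exact p of 0.333, and within the second table it was -2.73 (exact test, p = 0.00926, adjusted p = 0.0370). With 23 and 24 nt summed as the class it was -1.92 (exact test, adjusted p = 0.00617). Separate plants are not recorded for the libraries of a group, so the p-values rest on the spread among these libraries, which may be technical. In whole plants a change in every cell cannot be told apart from a change in some cells.

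On the sense strand, 24-nt reads were fewer than 21-nt reads in all 15 libraries. With the WT hairpin there were 0.118 and 0.245 sense 24-nt reads per 21-nt read in first-table libraries 15 and 17, and with the G:U hairpin 0.283 and 0.264 in libraries 12 and 13. In Col-0 the sense 24-to-21-nt ratio was 0.543 in the WT library and 0.774 and 0.714 in the G:U libraries, and the latter pair were the highest of all 15 libraries. In nrpd1a it was 0.228 and 0.193 (WT) and 0.398 and 0.40 (G:U). The G:U libraries were above the WT libraries without overlap in these 3 strata. In ocp11 the hairpins overlapped, with 0.337 and 0.574 for WT libraries 10 and 11 and 0.284 and 0.516 for G:U libraries 4 and 6. The mean log2 difference between G:U and WT was 0.47 (SD 0.48 over 4 strata), which did not pass the threshold of 0.05 (exact stratified permutation p = 0.0586, adjusted p = 0.117). Leaving out the ocp11 stratum, the only one with overlap, gave 0.69, which passed (exact test, adjusted p = 0.0185). The other choices of strata did not pass. The difference was 0.47 without the second-table Col-0 stratum (exact test, adjusted p = 0.157) and 0.39 within the second table (exact test, adjusted p = 0.333). Within the first table, where the design cannot pass, it was 0.68.

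On the antisense strand the 24-to-21-nt ratio varied far more among WT than among G:U libraries. The 8 G:U libraries ranged from 0.179 to 0.502 antisense 24-nt reads per 21-nt read (median 0.269), and the 7 WT libraries from 0.0287 to 0.608 (median 0.144). Both ends of the WT range came from libraries numbered 15. The first-table library had 3164 antisense 24-nt reads beside 110355 of 21 nt, and the second-table one had 57700 beside 94882. The other WT libraries ranged from 0.132 in first-table library 17 to 0.366 in ocp11 library 11, a range no wider than that of the G:U libraries.

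The antisense order of the hairpins was not the same in every stratum, and it was reversed between Columbia of the first table and Col-0 of the second. First-table G:U libraries 12 and 13 (0.179 and 0.242) and nrpd1a G:U libraries 2 and 18 (0.347 and 0.285) lay above their WT counterparts, at 0.144 and 0.140 in nrpd1a. In ocp11 the hairpins overlapped, at 0.238 and 0.366 (WT) and 0.323 and 0.502 (G:U), while in Col-0 the G:U libraries (0.253 and 0.236) lay below the WT library (0.608). The mean log2 difference was 0.51 (SD 1.33 over 4 strata), with no call (exact stratified permutation test, p = 0.304, adjusted p = 0.405). Leaving out the second-table Col-0 stratum gave 1.12, with the antisense 24-to-21-nt ratio higher in G:U plants (exact test, adjusted p = 0.0247). With same-numbered Columbia libraries of both tables averaged as a replicate block it was 0.79 (exact test, adjusted p = 0.0370), and with 23 and 24 nt summed 1.11 (exact test, adjusted p = 0.0586).

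The strand ratio at 24 nt was set beside that of the other lengths in the same libraries, to show whether the shortage of antisense reads was shared. In G:U libraries the strand ratio ranged from 0.148 to 0.342 at 21 nt, from 0.136 to 0.342 at 22 nt and from 0.501 to 1.55 at 23 nt, against 0.0900 to 0.260 at 24 nt. In WT libraries it ranged from 0.893 to 2.88 at 21 nt, 0.495 to 1.45 at 22 nt and 0.645 to 3.56 at 23 nt, against 0.481 to 2.19 at 24 nt. At 21 and 22 nt, as at 24 nt, every G:U library lay below every WT library, so these lengths shared the shortage. At 23 nt the hairpins overlapped. The 23-nt class thus had more antisense reads for each sense read than the 24-nt class with either hairpin.

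Against 21 nt, the strand ratio at 24 nt was lower in 7 of 8 G:U libraries, by a mean log2 difference of -0.57 (SD 0.69), and in 6 of 7 WT libraries, by -0.72 (SD 0.67). Neither passed (exact sign-flip tests, two-sided, p = 0.0391 and 0.0313, both adjusted p = 0.0586 over 6 tests). The exceptions were ocp11 G:U library 4 and the Col-0 WT library, and without the first of these the G:U difference was -0.67 and passed (exact test, adjusted p = 0.0313). Without any other single G:U library it did not pass (exact tests, adjusted p = 0.0563 to 0.117). The WT difference did not pass without the Col-0 WT library either (-0.87, exact test, adjusted p = 0.0586). The same quantity compares the 24-to-21-nt ratio of the antisense with that of the sense strand. It differed between the hairpins by 0.044 on the log2 scale (SD 1.26 over 4 strata, exact stratified permutation p = 0.915). Leaving out the second-table Col-0 stratum gave 0.65, which passed (exact test, adjusted p = 0.0247). It was -0.30 within the second table and 0.73 with 23 and 24 nt summed (exact test, adjusted p = 0.100).

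Against 23 nt, the next length down, the strand ratio at 24 nt was lower in all 15 libraries. The mean log2 difference was -2.47 (SD 0.71, n = 8) with the G:U hairpin, a 5.55-fold lower ratio at 24 nt, and -0.45 (SD 0.18, n = 7) with the WT hairpin. Both passed (exact sign-flip tests, p = 0.00781 and 0.0156, the smallest possible, adjusted p = 0.0469 each). With same-numbered Columbia libraries averaged both had adjusted p = 0.0625 (exact test). Without any 1 WT library the WT value was between -0.50 and -0.41 with an adjusted p of 0.0586 to 0.0781. In each of these fits the exact p of 0.0313 was the smallest that its 64 arrangements allow. Within the second table alone the values were -2.41 and -0.51 (exact test, adjusted p = 0.188 each). Their exact p of 0.0313 and 0.0625 were also the smallest possible. The 8 G:U differences, from -3.31 to -1.02, all lay below the 7 WT differences, from -0.70 to -0.20. This contrast of hairpins was singled out after its values were seen and was not tested.

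Put by strand, sense 24-nt reads outnumbered sense 23-nt reads 4.18 to 8.71 times with the G:U hairpin and 1.76 to 8.43 times with the WT hairpin. Antisense 24-nt reads outnumbered antisense 23-nt reads 1.53 to 5.59 times in WT libraries. In G:U libraries this antisense ratio was 0.421 to 2.08, and 23-nt reads were the more frequent in first-table library 12 (0.421) and ocp11 library 6 (0.80). Against 22 nt, the strand ratio at 24 nt differed by a mean log2 of -0.51 in G:U and 0.25 in WT libraries (exact sign-flip tests, p = 0.102 and 0.109, adjusted p = 0.109 each). It was lower at 24 nt in 6 of 8 G:U libraries, the exceptions being both ocp11 libraries, and higher in 5 of 7 WT libraries.

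The mutant libraries bear on the question whether the 24-nt class depends on RNA polymerase IV and ARGONAUTE4. Reads of 24 nt in second-table Col-0 were 24.5% of the 18 to 25 nt reads with the WT and 26.6% and 24.9% with the G:U hairpin, above every mutant library. In nrpd1a they were 11.7% and 10.5% with the WT hairpin (libraries 2 and 13) and 20.9% and 19.5% with the G:U hairpin (libraries 2 and 18). In ocp11 they were 16.0% and 23.4% with the WT and 16.5% and 23.7% with the G:U hairpin. The first-table Columbia libraries had lower shares than Col-0, 3.19% and 9.50% with the WT and 13.2% and 14.5% with the G:U hairpin. The mutant libraries thus lay below one set of Columbia libraries and, hairpin by hairpin, above the other.

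On the sense strand, the 24-to-21-nt ratios of nrpd1a given above lay below those of Col-0 in the second table with both hairpins, by a mean log2 difference of -1.14 (-1.37 with WT and -0.90 with G:U), or 2.20-fold lower. The exact stratified permutation test gave p = 0.0556, the smallest that its 18 arrangements allow, and an adjusted p of 0.167 over 3 measures, so this design could not pass the threshold. In ocp11 the difference was -0.63 (exact test, p = 0.167, adjusted p = 0.50), where WT library 11 (0.574) lay above Col-0 (0.543) and WT library 10 and both G:U libraries below. With both mutants as 1 group it was -0.88 (exact test, p = 0.0533, adjusted p = 0.160), and without ocp11 WT library 11 it was -1.04 (exact test, p = 0.0167), with an adjusted p of 0.05, at the threshold and not below it. The first-table Columbia libraries, at 0.118 and 0.245 with the WT and 0.283 and 0.264 with the G:U hairpin, all lay below Col-0 of the second table, and those with the G:U hairpin also below all 4 mutant libraries, although ocp11 G:U library 4 (0.284) was within counting error of the 0.283 of library 12. When these were added to the controls, the differences were -0.22 for nrpd1a, 0.29 for ocp11 and 0.035 for both. The direction for ocp11 and for both mutants thus depended on which Columbia libraries, and so which batch, served as controls.

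The strand ratio at 24 nt in the mutants went opposite ways with the 2 hairpins, relative to Col-0. With the G:U hairpin the values did not overlap between the backgrounds of the second table: they were lowest in Col-0 (0.112 and 0.0900), higher in nrpd1a (0.180 and 0.191) and highest in ocp11 (0.260 and 0.220). The first-table G:U libraries, at 0.114 and 0.136, also lay below all 4 mutant libraries. In log2 terms the G:U difference from Col-0 was 0.89 in nrpd1a and 1.25 in ocp11, and 1.07 for both mutants together (exact permutation p = 0.0667, the smallest that 4 against 2 libraries allow, adjusted p = 0.10).

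With the WT hairpin the Col-0 library had a strand ratio of 2.19 and every mutant library was lower, by a mean log2 of -1.33 in nrpd1a and -1.68 in ocp11. The first-table WT libraries (0.699 and 0.481) were not above the nrpd1a libraries. Averaged over the hairpins, the differences were -0.22 in nrpd1a (exact stratified permutation p = 0.833), -0.22 in ocp11 (exact p = 0.944) and -0.22 for both (exact p = 0.667). The antisense 24-to-21-nt ratio behaved likewise, with log2 differences from Col-0 of -2.10 (WT) and 0.36 (G:U) in nrpd1a and of -1.04 and 0.72 in ocp11. Its means over the hairpins were -0.87 in nrpd1a (exact p = 0.333), -0.16 in ocp11 (exact p = 0.778) and -0.52 for both (exact p = 0.467). Whether the mutant effect differed between the hairpins was not tested, and the WT side rests on 1 Col-0 library. If library numbers mark transgene lines, background and line cannot be told apart, since no number is shared by Col-0 and a mutant with the same hairpin.

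The numbers 15, 12 and 13 occur in both tables, which shows how steady each ratio was in the Columbia background. The strand ratio at 24 nt of G:U library 12 was 0.114 and 0.112, a log2 difference of -0.023, and that of G:U library 13 was 0.136 and 0.0900 (-0.59). In WT library 15 it was 0.699 and 2.19 (1.65). The G:U strand ratio thus moved less between the tables than the gap between the hairpins. That of WT library 15 moved by more than the smallest gap, which was -1.51 in ocp11. The sense 24-to-21-nt ratio was higher in the second table at all 3 numbers, 2.73-fold and 2.71-fold in G:U libraries 12 and 13 and 4.60-fold in WT library 15. The antisense ratio was 1.42-fold higher in G:U library 12, 0.975 times as high in G:U library 13, and 21.2-fold higher in WT library 15. The labels do not say whether equal numbers mark the same line, and the tables are separate batches. No cause of these shifts was tested.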

How the data were processed

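Small RNA libraries were sequenced from total RNA. Per the file headers, the authors deposited raw counts of reads, split by library, strand, length and stem, with no normalization recorded. Cutadapt and Bowtie 1.0 were used with the TAIR10 build, per the submitters' processing notes. The mismatches allowed and the treatment of reads matching both stems were not recorded in the sources used here, and both can shift reads between the stem blocks. The second table lists 4 entries for each library in a column headed replicate, while the labels list 1 sample. The entries were therefore summed as repeat runs and counted as 1 replicate. Runs differed slightly beyond sampling noise in the 21-nt and 24-nt classes of both strands (chi-square test per library, p under 0.05 in 5 of 11, lowest adjusted p = 0.00288). The widest range of the log2 strand ratio over the runs of a library was 0.54, in the shallowest.

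Groups were taken from titles. For both ocp11 G:U samples the genotype label says WT hairpin, and the tables list them on the GU stem. A table entry nrpd1a WT 13 has no such title and was used as the remaining library of its group (title number 3). The 5 GUS hairpin samples were not analysed here. Group differences in log2 ratios, with no pseudocount and no count filter, were tested with exact stratified permutation or sign-flip tests in Python 3.11.15, numpy 2.4.6 and scipy 1.17.1. The stratified test, in the layout of the hairpin comparison, and the sign-flip test were checked on simulated libraries of equal spread. The layouts of the mutant comparisons were not simulated. Members, measures and tests were chosen with earlier results of these data known. By the naming rule the 24-nt class is given in every library, 21 nt as the denominator, and 22 and 23 nt beside the strand ratio. Intervals cover counting error only, and reads without molecular identifiers are not independent molecules.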

Additional observations from a re-analysis of the deposited data

Results flagged for a closer look

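The difference between the hairpins (log2, G:U minus WT) went opposite ways between strata of background and table for the measures below. For the antisense 24-to-21-nt ratio it was 1.76 in the first table and 1.15 in nrpd1a, with all G:U libraries above all WT libraries, and -1.31 in Col-0 of the second table, with both below. For the strand ratio at 24 nt minus that at 21 nt it was 1.07 in the first table and 0.65 in ocp11, and -1.77 in Col-0. The most opposed strata, the first table and Col-0 of the second table, are both Columbia but lie in separate tables. These contrasts between strata were not tested, and the Col-0 side has 1 WT library.

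The mutants differed from second-table Col-0 in opposite directions with the 2 hairpins, where the WT side rests on a single Col-0 library. For the strand ratio at 24 nt the log2 difference was -1.33 (WT) and 0.89 (G:U) in nrpd1a and -1.68 (WT) and 1.25 (G:U) in ocp11. For the antisense 24-to-21-nt ratio it was -2.10 (WT) and 0.36 (G:U) in nrpd1a and -1.04 (WT) and 0.72 (G:U) in ocp11. In each of these, every mutant library lay on the same side of every Col-0 library of its hairpin. The difference between the hairpins was not tested. Relative to the first-table Columbia libraries the mutant means were higher with both hairpins. The mean log2 strand ratio there was -0.79 (WT) and -3.01 (G:U). It was -0.20 and -2.43 in nrpd1a and -0.55 and -2.06 in ocp11. The mean log2 antisense 24-to-21-nt ratio was likewise lower in those Columbia libraries, at -4.02 (WT) and -2.26 (G:U), than in either mutant.

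In G:U libraries some 24-nt reads lay outside the strand and stem blocks used. Over the 8 libraries there were 842 sense 24-nt reads on the WT stem, 0.0248% to 0.517% of the sense 24-nt reads of a library. There were 753 antisense 24-nt reads on the GU stem, 0.160% to 1.44% of the antisense 24-nt reads. Of these 753, 636 came from ocp11 library 6, where they outnumbered the 483 antisense 21-nt reads on that stem (ratio 1.32). In the other G:U libraries this ratio was 0.252 to 0.565, but it rested on only 4 to 54 reads of 24 nt and 14 to 214 of 21 nt per library. No library without a hairpin was used, so these counts have no control level beyond the 3 counts that a count of 0 allows.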

How the results depend on the processing

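The lower strand ratio at 24 nt in G:U plants kept its direction in all 25 alternatives and its call in 24, the exception being the first table alone (-2.22), where the design cannot pass. With same-numbered Columbia libraries averaged (replicate block) it was -2.18 (exact test, adjusted p = 0.0370). The labels do not say that numbers pair libraries, and the shared numbers give too few pairs to check it. This replicate block brought the antisense 24-to-21-nt ratio past the threshold (0.79) and ended both calls against 23 nt (-2.44 with G:U, -0.45 with WT), and changed no other call. Both values against 23 nt stayed close to the main ones, and their exact p of 0.0313 was the smallest that 64 arrangements allow. Leaving out any 1 library other than the Col-0 WT library gave -2.67 to -2.53 for the strand ratio, 0.33 to 0.60 for the sense 24-to-21-nt ratio, 0.24 to 0.79 for the antisense ratio and -0.10 to 0.19 for the strand ratio at 24 nt minus that at 21 nt. Leaving out the Col-0 WT library removes the whole Col-0 stratum of 3 libraries, so these 2 alternatives are the same fit (-1.99, 0.47, 1.12 and 0.65). With 23 and 24 nt summed as the class the values were -1.92, 0.39, 1.11 and 0.73, with no change of call.

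The strand ratio at 24 nt minus that at 21 nt was near 0 and turned negative with 21 and 22 nt as denominator (-0.054), with the first run alone (-0.0054), within the second table (-0.30), without ocp11 (-0.16) and without first-table G:U library 13 (-0.024) or WT library 15 (-0.10). Without the second-table Col-0 stratum the antisense ratio (1.12) and this difference (0.65) passed, and without ocp11 the sense ratio did (0.69). Single libraries left out gave -2.68 to -2.35 (G:U) and -0.50 to -0.41 (WT) against 23 nt, and -0.67 to -0.42 (G:U) against 21 nt. Within the second table the 23-nt values were -2.41 and -0.51 without a call, each at the smallest p that its fewer libraries allow. The cause of the changes in value was not tested.

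Adding first-table Columbia libraries to the controls turned the strand ratio to 0.34 (nrpd1a), 0.35 (ocp11) and 0.34 (both), the antisense ratio to 0.29, 1.00 and 0.64, and the sense ratio of ocp11 and of both mutants to 0.29 and 0.035. Single libraries left out gave, for the strand ratio, -0.30 to 0.89 (nrpd1a), -0.30 to 1.25 (ocp11) and -0.30 to 1.07 (both), and for the antisense ratio -0.94 to 0.36, -0.32 to 0.72 and -0.66 to 0.54. The positive ends of these 6 ranges are without the Col-0 WT library, which leaves the G:U libraries alone to be compared. For the sense ratio the ranges were -1.20 to -0.90, -0.96 to -0.42 and -1.04 to -0.78. No background comparison had an adjusted p below 0.05 in any alternative, and the lowest was 0.05, for the sense ratio of both mutants without ocp11 WT library 11. Of 286 alternative values in all, 247 kept direction and call. Some of these calls could not change. Either mutant alone against second-table Col-0 cannot go below an exact p of 0.0556, and summing both stems left the values within WT libraries as they were. Other scalings between libraries were not tried, since ratios within a library do not use a library total.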
